A study of Danio rerio with 8 samples.

Results

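The response of the adult zebrafish spinal cord to complete transection was followed in wild-type fish, as the difference in transcript level between injured cord 1 week after the cut and uninjured cord. The injured side consists of 2 libraries, called injured 1 and injured 3 here, and the uninjured side of 2 libraries, uninjured 1 and uninjured 2. Every gene with a mean of at least 1 CPM (counts scaled to the same total in every library) in at least 1 of the 4 groups of the series was described, which was 19114 of 25309 entries; 18438 of them reached that mean in a wild-type group. Genes known from muscle, egg, yolk, liver and blood were set apart as transcripts of neighbouring tissue. The fish were male and female wild-type siblings of mstnb mutants, aged 3 to 9 months. In the injured group the cord was cut with scissors 4 mm behind the brainstem, and a 2 mm piece around the lesion was taken 1 week later. The uninjured group gave a 2 mm piece from the same level; the labels describe a sham operation but call this group uninjured and do not say that it was sham-operated, so the cut of the cord and the surgery around it cannot be told apart. The other 4 libraries of the series, 2 from injured and 2 from uninjured mstnb -/- mutants (mstnb codes for a myostatin, a secreted inhibitor of muscle growth), share no library with the wild-type comparison. They were used to estimate the spread and to show how the same genes stood in libraries of their own.

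Zebrafish, unlike mammals, regrow axons across a cut spinal cord and swim again within weeks. Radial glia that line the central canal, called ependymo-radial glia, divide and bridge the gap, macrophages and microglia clear debris and myelin, and neurons switch on a growth programme of cytoskeletal and growth cone genes. Fibroblast-like cells lay down matrix at the lesion, which in mammals forms a scar.

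Depth was 20082006 and 20781621 reads in injured 1 and injured 3, against 22411082 and 24303409 reads in uninjured 1 and uninjured 2. The labels do not tell how many fish went into a library, so p-values measure the spread between libraries only, with the mutant libraries included. Across genes, log2 values correlated at 0.977 between the injured libraries and at 0.902 between the uninjured ones, so most of the spread lay in the uninjured cord. The tissue label was checked against marker genes. Myelin and oligodendrocyte markers summed to 50569 and 48792 CPM in injured cord, against 88722 and 89818 CPM in uninjured cord. Most of that sum was mbpa, with 37361 and 36901 CPM against 78682 and 80789.7 CPM. Of the 7 markers, mbpa was the 1 lower in both injured libraries, and 4 were higher in both. Neuronal markers summed to 6773 and 7365 CPM against 5713 and 10359 CPM, and hox genes of spinal position to 297 and 311 CPM against 256 and 336 CPM. The gene mutated in the other genotype, mstnb, had 45.2 and 42.2 CPM in injured and 48.8 and 74.8 CPM in uninjured wild-type cord, above the 11.9 and 17.7 CPM of injured and 10.2 and 26.4 CPM of uninjured mutants. Of the forebrain and midbrain markers, neurod6b was the only one above 1 CPM in any of the 4 libraries. In bulk tissue, fewer cells of a type and less RNA per cell cannot be told apart.

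In limma far more genes passed as higher than as lower 1 week after transection, while DESeq2 called more of them lower. In all, 737 of 19114 genes passed (3.86%), 555 of them higher in injured cord (2.9%) and 182 lower (0.952%). The test was limma on log2(CPM + 1) with Benjamini-Hochberg adjustment over all genes, called at an adjusted p under 0.05. In every one of the 737, both injured libraries lay on one side of both uninjured ones, as they did upwards in 36.7% and downwards in 13% of all genes tested. The median gene moved by 0.29 on the log2 scale, and by 0.05 with TMM scaling, so log2 changes are given relative to that median (± SE), where 1 is a doubling; p-values belong to the change before this shift. By that measure 129 of the rises and 160 of the falls went beyond 2, and 23 and 106 went beyond 3. The split depends on scaling: TMM-scaled values gave 648 calls (3.39%), 411 higher (2.15%) and 237 lower (1.24%). On recovered reads edgeR gave 508 (2.66%), 287 higher (1.5%) and 221 lower (1.16%), and DESeq2 1707 (8.93%), 781 higher (4.09%) and 926 lower (4.84%). An adjusted p under 0.05 was given in the authors' deposited table to 8907 genes, all 737 among them with the same sign. A core of 418 genes passed in limma, with TMM scaling, in edgeR and in DESeq2, 281 higher and 137 lower.

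Nearly all rises had the same direction in the mutant libraries, and most of the falls did not. The 2 comparisons share no library, but they use the same estimate of spread for each gene, so passing in both is not independent. With the mutants left out of the fit, 110 genes passed in wild type. In mutants 610 genes passed (3.19%). Of the 555 genes higher in injured wild-type cord, 554 also lay above the median change in mutants and 323 passed there too (58.2%, where 2.94% of all genes tested passed upwards). Of the 182 lower genes, 77 lay below the median change in mutants, 25 passed downwards there (13.7%, where 0.251% of all genes did), and 48 passed upwards. In 96 of 182 falls (52.7%) the level (CPM + 1) in uninjured 1 was more than 3 times that in uninjured 2. The same held for 3 of 555 rises (0.541%) and 2.74% of all genes tested. In 17 rises and 0 falls uninjured 2 was more than 3 times uninjured 1. Uninjured cord is the higher group in falls and the lower group in rises, so these shares do not compare like with like. Without uninjured 1, 351 of the rises and 105 of the falls passed again.

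**Figure D1:**
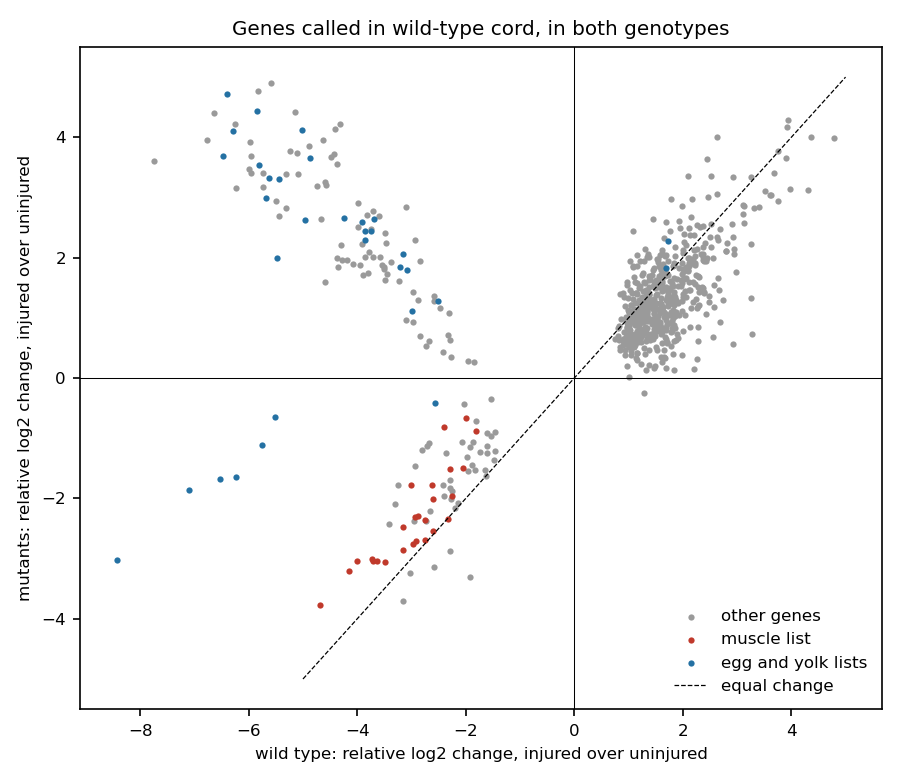
Injury change of the 737 genes called in wild-type cord (horizontal axis, relative log2 change, injured over uninjured wild type) against the change of the same genes in mutants (vertical axis, injured over uninjured mutants); each point is a gene, coloured by its list, and the dashed line marks an equal change. All but 1 of the 555 rises lie above 0 in mutants too, muscle genes lie below 0 in both, and most egg genes lie below 0 in wild type and above 0 in mutants.

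How firmly single genes are known depends on the injured libraries as well. Leaving out injured 1 left 70 calls and leaving out injured 3 left 57; in such fits the single library that remains is assumed to vary like the other groups. Leaving out uninjured 1 left 611 calls, and leaving out uninjured 2 gave 3834. Of the 243 genes named in this text that passed, 44 still passed without injured 1, 36 without injured 3, 189 without uninjured 1 and 243 without uninjured 2.

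Among genes of the neighbouring tissue lists, which are set apart here, yolk precursor genes fell furthest. vtg1, a vitellogenin gene with the largest fall of any gene on the scale of log2(CPM + 1), stood at 0.299 and 0.144 CPM in injured cord, against 2295 and 50.6 CPM in uninjured cord (relative log2 change -8.43 ± 1.23, adjusted p = 0.00499). Its paralog vtg2 had 0 and 0.481 CPM against 971 and 18.5 CPM (-7.11 ± 1.296), and vtg4 and vtg5 changed by -6.52 and -6.24. That scale understates the fall of vtg4, which had 0 reads in the injured libraries and 12355 in the uninjured ones, at least 3749-fold lower. An entry that is in no list and has only a clone name, si:ch211-226h8.4, ranked between vtg1 and vtg2, with 0.149 and 0 CPM against 631 and 55.9 CPM (-7.75 ± 1.19). Egg coat genes of the zona pellucida family followed. zp3a.1 had 0.846 and 0.529 CPM in injured cord, against 304 and 43.0 CPM in uninjured cord (-6.39 ± 0.98), zp3 1.39 and 0.241 CPM against 272 and 43.7 CPM (-6.29 ± 0.94) and zp3f.1 0.349 and 0.289 CPM against 199.98 and 18.02 CPM (-5.84 ± 0.91). In all of these uninjured 1 stood far above uninjured 2, and copies within each family are alike, so their split is uncertain. Of the egg and oocyte list, 23 of 47 members fell and 15 of these 23 passed upwards in mutants; the members' median change was -2.99 in wild type and 1.85 in mutants. Of the yolk, liver and plasma list 7 of 66 fell, 6 vitellogenins and the tyrosine aminotransferase gene tat, and 2 rose, igfbp1a and apoc1.

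Muscle transcripts were lower in injured cord in both genotypes. Of 93 muscle genes 26 fell, and 13 of these passed downwards in mutants too. The parvalbumin gene pvalb3 had 80.6 and 81.6 CPM in injured cord, against 2993 and 1000.2 CPM in uninjured cord (-4.69 ± 0.41, adjusted p = 0.000372). The myosin light chain gene mylpfa had 79.5 and 98.8 CPM against 3127 and 549.5 CPM (-4.16 ± 0.57), the tropomyosin gene tpma 78.6 and 115 CPM against 2092 and 524 CPM (-3.73 ± 0.49) and the creatine kinase gene ckmb 449 and 654 CPM against 2754 and 2007 CPM (-2.40 ± 0.29). The parvalbumin genes, pvalb4 (-4.001 ± 0.45) and pvalb1 (-3.71 ± 0.77), fell as well. All 7 muscle markers lay lower in both injured libraries, and summed to 1147 and 1621 CPM in injured cord, against 20031 and 5096 CPM in uninjured cord. The alpha-globin gene hbaa1 also fell, with 172 and 238 CPM against 940.3 and 427 CPM (-1.93 ± 0.36, adjusted p = 0.0263 and 0.0686 without uninjured 1). cpox, for an enzyme of haem synthesis in the same blood list, rose (1.11 ± 0.29). Rescaling each library to its reads outside these lists and the 13 listed mitochondrially coded genes left 648 calls, of which 636 were among the 737. The entry NC_002333.4, which carries the name of a mitochondrial sequence and no gene symbol, was not taken out in that rescaling. It had 88993 and 87087 CPM in injured cord, against 149836 and 152027 CPM in uninjured cord. Whether the amount of neighbouring tissue in a piece was set by the injury or by dissection was not tested. The fish were of both sexes, and the sex behind each library is not known here. Its part in the levels of egg and yolk transcripts was not tested either.

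**Figure D2:**
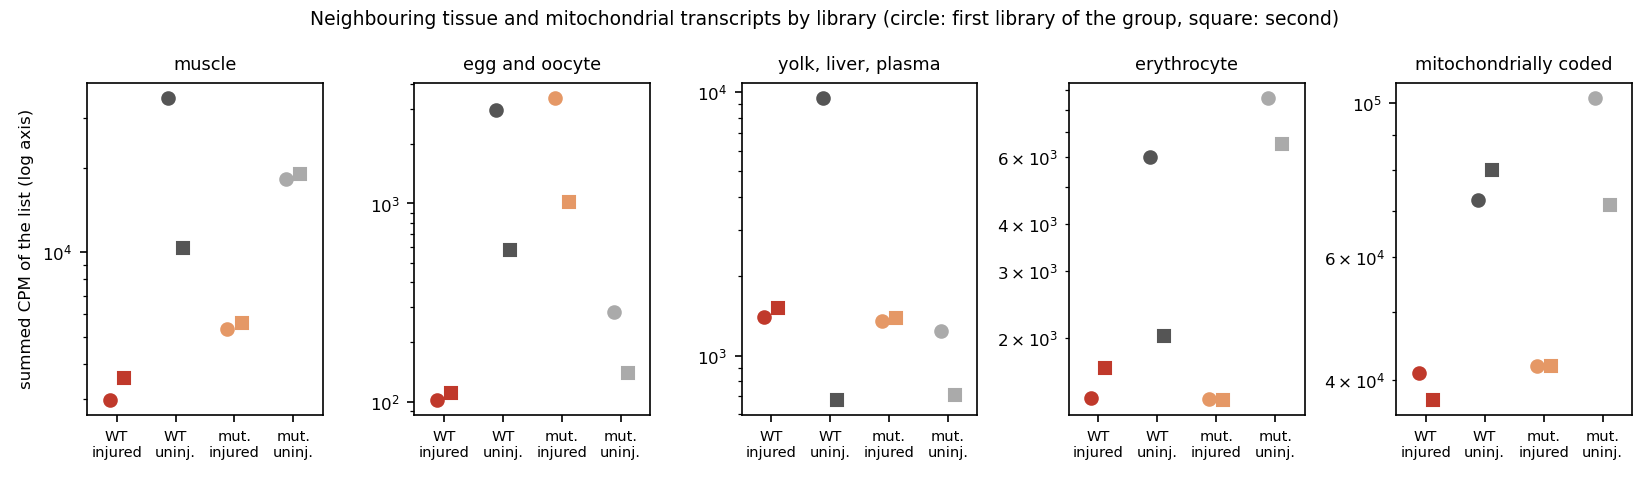
Summed CPM (log axis) of 5 gene lists in each library, injured wild type left of uninjured wild type, then injured and uninjured mutants; circles are the first and squares the second library of a group. Egg transcripts were lowest in both injured wild-type libraries and highest in 1 injured mutant library and in uninjured 1 of the wild type, while muscle and mitochondrially coded transcripts were lower in all injured libraries.

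In the lists that follow, counts stand beside 2.9% of all genes tested that rose and 0.952% that fell. The lists and their members were chosen with earlier results of these data known, so a share above these values is no test of a list. Tubulin genes code for the subunits of microtubules. Of 18 tested, 8 rose (5 with TMM scaling, 5 in edgeR, 3 without injured 1 and 3 without injured 3), and 6 of these also passed in mutants. The beta-tubulin gene tubb6 had 55.0 and 58.5 CPM in injured cord, against 0.848 and 1.85 CPM in uninjured cord (4.36 ± 0.39, adjusted p = 0.000227). The growth-associated isotype tubb5 had 1644 and 1696 CPM against 91.8 and 111 CPM (3.75 ± 0.35). The level of tubb6 was near that of a silent gene in uninjured cord, while tubb5 was well expressed there and took far more reads after injury. Among alpha-tubulins, tuba1b rose to 194 and 225 CPM, against 31.0 and 33.3 CPM in uninjured cord (2.38 ± 0.28), tuba1a to 1429 and 1717 CPM, against 441 and 463 CPM (1.504 ± 0.29), and tuba8l3 to 447 and 481 CPM, against 107 and 160.1 CPM (1.53 ± 0.31). tuba8l4 (0.99 ± 0.27) and the abundant beta-tubulin gene tubb4b, with 4410.0 and 3813 CPM against 1486 and 1884 CPM (1.01 ± 0.30), rose by less. Some isotypes that also took many reads did not pass: tubb2 had 1094 and 976 CPM in injured and 772 and 988 CPM in uninjured cord (-0.04 ± 0.33), and tuba2 had 552 and 500.3 CPM in injured and 589 and 474 CPM in uninjured cord (-0.30 ± 0.33). Tubulin sequences are alike, and how the authors shared out reads between copies is not given, so the split between isotypes is less certain than their sum, which was 12088 and 11753 CPM in injured cord, against 4937 and 5546 CPM in uninjured cord.

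Genes of the growth cone, the moving tip of a growing axon, were listed together with inhibitors of axon growth, and this list held rises too. Of 86 such genes 15 rose (8 in edgeR, 4 without injured 1, 3 without injured 3), with a median change of 0.31 over the list. gap43, which codes for a membrane protein of regrowing axons, stood at 1935 and 1625 CPM in injured cord, against 115 and 237 CPM in uninjured cord (3.13 ± 0.37, adjusted p = 0.000738). The thymosin gene tmsb, for an actin-binding peptide, had 64.3 and 67.9 CPM against 7.81 and 3.58 CPM (3.11 ± 0.36), and the stathmin gene stmn4l, for a regulator of microtubule growth, 327 and 265 CPM against 53.7 and 38.7 CPM (2.38 ± 0.30). The level in each injured library of these 3 genes was several times that in either uninjured one. The actin gene actb1 rose to 1465 and 1521 CPM, against 301 and 510.2 CPM (1.64 ± 0.30), and marcksb, for a protein that ties actin to the membrane, to 158 and 159 CPM, against 65.9 and 49.3 CPM (1.17 ± 0.29). Of the abundant members that did not pass, stmn1b, another stathmin gene, had 4492 and 3313 CPM in injured and 3182 and 3439 CPM in uninjured cord (-0.07 ± 0.28). Named after its values were seen, prph (peripherin), an intermediate filament gene of regrowing axons, had 219.6 and 193 CPM against 64.8 and 64.0 CPM (1.38 ± 0.36). Of the growth inhibitors in the list that are known from mammalian myelin, mag (1.46 ± 0.36) and, again after its values were seen, rtn4a (1.13 ± 0.33) were among those that rose. In mutants the changes of gap43, tmsb and stmn4l were 2.57, 2.88 and 2.52.

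**Figure D3:**
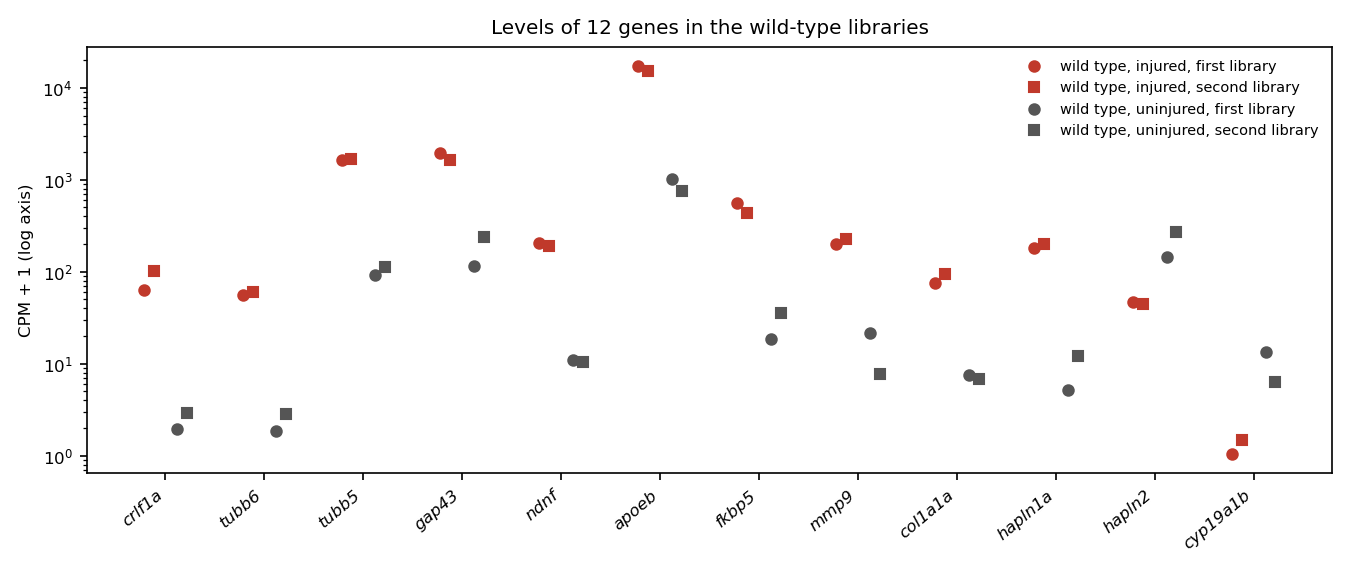
CPM of 12 genes (log axis, CPM + 1) in each wild-type library, injured left of uninjured; circles are injured 1 and uninjured 1, squares injured 3 and uninjured 2. In all 12 both injured libraries are on one side of both uninjured ones: 10 are higher after injury, and hapln2 and cyp19a1b are lower.

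Axon guidance genes gave no call in limma or edgeR. Of 92 semaphorin, slit, netrin, ephrin and Eph genes, 15 were higher and 0 lower at an unadjusted p under 0.05, and DESeq2 called 2 higher and 1 lower. Their median change was 0.18.

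Cytokine signalling of the IL-6 family, which acts through the shared receptor il6st (gp130) and the transcription factor STAT3, had members that rose at each step, the ligand, the receptor, the kinase, STAT3 and the feedback inhibitor. Of 24 genes 6 rose, with 3 passing without uninjured 1, 2 without injured 1 and 1 without injured 3. The largest of the 30 rises ranked by size was the ligand gene crlf1a, for a secreted partner of CNTF-type cytokines, with 62.3 and 100.03 CPM in injured cord, against 0.937 and 1.89 CPM in uninjured cord (4.79 ± 0.38, adjusted p = 9.55e-05). Its partner gene clcf1 had 114 reads in the injured libraries together and 0 reads in the uninjured ones, which makes it at least 43.1-fold higher against a floor of 3 reads over both uninjured libraries (1.49 and 4.04 CPM against 0 and 0 CPM, adjusted p = 0.0421). The receptor il6st had 125 and 154 CPM against 37.7 and 49.5 CPM (1.37 ± 0.32), the kinase jak1 123 and 111 CPM against 26.4 and 55.2 CPM (1.3003 ± 0.34) and stat3 93.9 and 100.1 CPM against 31.7 and 45.7 CPM (1.04 ± 0.31). The feedback inhibitor socs3a, a STAT3 target, had 96.6 and 190.2 CPM against 25.5 and 39.3 CPM (1.78 ± 0.37), with injured 3 well above injured 1. stat1a, the factor of the interferon branch, did not pass, with 127 and 119.8 CPM in injured and 123 and 112 CPM in uninjured cord (-0.22 ± 0.28).

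Trophic factor genes were led by ndnf, which codes for a secreted neuron-derived neurotrophic factor and had the smallest p of all genes in this comparison. It stood at 204 and 187 CPM in injured cord, against 9.99 and 9.34 CPM in uninjured cord (3.92 ± 0.28, adjusted p = 6.57e-05; 4.17 ± 0.28 in mutants). Of 32 trophic factors and receptors 3 rose (1 with TMM scaling, 1 in edgeR): ndnf, the midkine gene mdka with 986 and 993 CPM against 416 and 391 CPM (1.01 ± 0.25), and ngfrb, a p75-type neurotrophin receptor gene, with 6.37 and 6.40 CPM against 1.43 and 1.19 CPM (1.39 ± 0.41). The second midkine gene, mdkb, did not pass (0.79 ± 0.28, adjusted p = 0.0594). In the insulin-like growth factor system 5 of 26 genes rose. The ligand genes igf2b and igf2a were among them, while igf1, looked up by name, did not pass (-0.16 ± 0.36). igf2b had 40.4 and 40.8 CPM against 11.7 and 14.6 CPM (1.27 ± 0.31) and igf2a 24.7 and 17.1 CPM against 7.05 and 6.17 CPM (1.22 ± 0.36), beside the binding protein genes igfbp7 (1.77 ± 0.33) and igfbp1a (1.70 ± 0.40) and the protease gene htra1b (1.05 ± 0.30). Kit ligand kitlgb, a stem cell factor gene, rose further than these 5 genes: 594 reads were counted in the injured libraries and 1 in the uninjured ones (11.6 and 17.4 CPM against 0 and 0.0411 CPM, 3.61 ± 0.41, adjusted p = 0.000707).

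Genes of the early response to injury and stress held calls 1 week after the cut. Of 64 AP-1, ATF and related genes 13 rose, and 34 lay above the median change; 10 rose with TMM scaling, 8 in edgeR, 8 without uninjured 1 and 1 without injured 1 or without injured 3, and 11 of the 13 passed in mutants as well. atf3, a stress-induced transcription factor gene of injured neurons, had 136 and 157 CPM in injured cord, against 24.1 and 17.9 CPM in uninjured cord (2.46 ± 0.29, adjusted p = 0.000707). AP-1 subunit genes followed, with junbb at 241 and 232 CPM against 62.5 and 66.8 CPM (1.57 ± 0.26), jun at 215 and 253 CPM against 84.9 and 81.2 CPM (1.19 ± 0.31) and fosl1a at 10.3 and 11.7 CPM against 1.43 and 2.22 CPM (1.81 ± 0.39). The sox factor genes of growing neurons, sox11a (0.98 ± 0.29) and sox11b (1.73 ± 0.43), and the growth arrest gene gadd45ga (2.36 ± 0.52) rose with them. Of 36 glucocorticoid-responsive genes 6 rose; 6 passed without uninjured 1, 1 without injured 1, 1 without injured 3 and 4 in edgeR. The co-chaperone gene fkbp5 had 557 and 435 CPM in injured cord, against 17.8 and 34.3 CPM in uninjured cord (3.97 ± 0.33, adjusted p = 0.000118). klf9 had 28.4 and 25.5 CPM against 2.19 and 6.09 CPM (2.26 ± 0.46) and tsc22d3, which codes for the leucine zipper GILZ, 93.0 and 117 CPM against 34.8 and 47.8 CPM (1.05 ± 0.29). The mTOR inhibitor gene ddit4 (1.76 ± 0.38), the prolyl isomerase gene fkbp9 (1.68 ± 0.39) and the glutamine synthetase gene glulb (1.22 ± 0.31) made up the rest. In the clock list 4 of 42 rose (2 with TMM scaling, 1 in edgeR), nr1d2a (1.62 ± 0.32), aanat1 (1.83 ± 0.42), usp2a (1.098 ± 0.29) and ciarta (1.15 ± 0.33); the labels give no time of day for the sampling.

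Developmental signalling pathways gave between 0 and 5 rises each, where 2.9% of all genes tested rose. In the Wnt list 5 of 67 rose and all 5 passed in mutants. The ligand gene wnt4b had 219.5 and 296 CPM in injured cord, against 41.4 and 37.9 CPM in uninjured cord (2.37 ± 0.35, adjusted p = 0.00258), and the potentiator gene rspo2 53.3 and 51.1 CPM against 8.43 and 15.6 CPM (1.80 ± 0.40). The receptor gene fzd2 had 43.0 and 53.1 CPM against 12.4 and 14.7 CPM (1.46 ± 0.32), and the secreted inhibitor gene dkk1a 3.49 and 6.11 CPM against 0.0446 and 0.288 CPM (1.996 ± 0.42). The beta-catenin gene ctnnb2 rose to 183 and 255 CPM, against 53.5 and 70.2 CPM (1.51 ± 0.28). Activators and an inhibitor of the pathway rose side by side. In the Notch list 3 of 41 rose, the ligand gene dlb (1.83 ± 0.46), the glycosyltransferase gene lfng, which modifies the receptor (1.11 ± 0.28), and the hairy-related gene her13 (2.28 ± 0.42). In the BMP, TGF-beta and activin list 4 of 79 rose. Among them were genes for secreted or membrane modulators: fstl1b at 135 and 151 CPM against 28.6 and 34.4 CPM (1.87 ± 0.30), the follistatin gene fstb (1.64 ± 0.41) and the decoy receptor gene bambia (1.32 ± 0.32). The remaining one was the TGF-beta-induced matrix gene tgfbi (1.39 ± 0.37). In the FGF list the factor gene etv1 rose (1.51 ± 0.36) and fgf20b fell (-1.86 ± 0.39), 1 and 1 of 38. The level of fgf20b was low, with 3 reads in the injured libraries together and 104 in the uninjured ones. In the retinoic acid list crabp2b, for a binding protein, was the 1 of 35 that rose (1.24 ± 0.37). Of 22 Hedgehog genes none passed in limma or edgeR, 4 were higher and 0 lower at an unadjusted p under 0.05, and DESeq2 called 2 higher and 0 lower.

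Of 57 macrophage and microglia genes 19 rose (9 with TMM scaling and 7 in edgeR), 17 of these 19 also in mutants, with a median change of 0.54 in wild type and 0.95 in mutants (2 and 1 passed without injured 1 and injured 3). Among all genes tested 2.9% rose, and 44 of the 57 lay above the median change. The apolipoprotein E gene apoeb, a lipid carrier made by activated microglia, is counted in the lipid list and not among these 57. It had 17116 and 15201 CPM in injured cord, against 1026 and 761 CPM in uninjured cord (3.90 ± 0.30, adjusted p = 9.55e-05), the largest gain in CPM of any gene. The galectin-3 binding protein gene lgals3bpb had 339 and 284 CPM against 39.4 and 20.8 CPM (3.10 ± 0.32). The colony stimulating factor receptor csf1ra, which marks the lineage, had 61.6 and 60.7 CPM against 8.48 and 16.7 CPM (1.97 ± 0.35), and the scavenger receptor gene marco 25.3 and 29.4 CPM against 4.51 and 4.98 CPM (2.01 ± 0.34). The phagocytic receptor gene havcr1 had 122 and 143 CPM against 31.1 and 35.1 CPM (1.68 ± 0.28), and the integrin gene itgae.1 16.03 and 23.05 CPM against 1.74 and 2.63 CPM (2.39 ± 0.39). itgb2, for the beta chain of leukocyte integrins, rose by 1.48 ± 0.30. The invariant chain cd74a, of antigen presentation, had 3359.8 and 3034 CPM against 1253 and 1317 CPM (1.03 ± 0.26). Abundant members of the list that did not pass include ccl34b.1, cd74b and aif1l.

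Genes of lipid transport and of the lysosome, which cells that digest myelin debris use, held further calls. The cholesterol exporter gene abca1a had 146 and 141 CPM in injured cord, against 23.6 and 29.1 CPM in uninjured cord (2.12 ± 0.28, adjusted p = 0.00105), and npc1, which moves cholesterol out of the lysosome, 155 and 161 CPM against 62.8 and 58.5 CPM (1.08 ± 0.27). The lipoprotein gene apoc1 had 997 and 1021 CPM against 441 and 139 CPM (1.74 ± 0.42), with uninjured 1 well above uninjured 2. In the lipid list 6 of 49 rose (4 with TMM scaling, 2 in edgeR), with a median of 0.02 over the list and 5 higher and 6 lower in DESeq2; they include the lipoprotein receptor gene lrp1ab (0.95 ± 0.31) and the fatty acid binding gene fabp7b (1.61 ± 0.47). In the lysosome list 11 of 86 rose (6 with TMM scaling, 4 in edgeR), all 11 of which passed in mutants. The protease gene ctsla (cathepsin L) had 518 and 504 CPM against 114 and 111 CPM (1.89 ± 0.25), the sulfatase gene gnsb 37.7 and 51.2 CPM against 5.09 and 13.1 CPM (1.99 ± 0.41) and grna (progranulin) 124 and 142 CPM against 44.9 and 45.8 CPM (1.24 ± 0.28). Cathepsins C, K and H followed, with ctsc at 1.12 ± 0.30, ctsk at 1.22 ± 0.32 and ctsh at 0.998 ± 0.29. The prosaposin gene psap did not pass, with 853 and 803 CPM in injured and 306 and 521 CPM in uninjured cord (0.76 ± 0.35). Of 31 genes of cholesterol synthesis none passed in limma or edgeR, 4 were higher and 0 lower at an unadjusted p under 0.05, and DESeq2 called 1 higher and 1 lower.

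Markers of other immune cells were low in both groups. The neutrophil markers mpx and lyz summed to 11.9 and 7.22 CPM in injured cord, against 10.9 and 7.69 CPM in uninjured cord, and the 3 T cell markers to 2.34 and 1.44 CPM against 2.54 and 4.32 CPM. The groups overlapped in the neutrophil sum, and both injured libraries lay below both uninjured ones in the T cell sum. In the neutrophil list mmp9 and mych were the 2 of 21 that rose. Of 18 lymphocyte genes none passed in limma, edgeR or DESeq2, and 2 were higher and 1 lower at an unadjusted p under 0.05. Of 34 complement genes 3 rose (2 with TMM scaling and 1 in edgeR), all from the terminal part of the cascade, while the list's median was -0.69 and DESeq2 called 4 higher and 7 lower. That median was 0.19 without uninjured 1, and some members, such as c3a.1 and c9, are also in the yolk, liver and plasma list. c7b had 267 and 284 CPM in injured cord, against 36.8 and 76.9 CPM in uninjured cord (2.06 ± 0.34, adjusted p = 0.00391), and c6 (1.39 ± 0.34) and c7a (1.67 ± 0.41) rose too. Among cytokine and chemokine genes 4 of 84 rose and 1 fell, where 2.9% of all genes tested rose and 0.952% fell. The osteoprotegerin gene tnfrsf11b, for a decoy receptor of the TNF family, had 49.9 and 42.0 CPM against 6.29 and 2.59 CPM (2.91 ± 0.40). The interleukin 4 receptor gene il4r.1 had 22.0 and 19.7 CPM against 4.37 and 2.06 CPM (2.14 ± 0.41); the TNF receptor gene tnfrsf9a (1.80 ± 0.43) rose too. The chemokine gene ccl36.1 had 0 reads in injured cord and 318 reads in uninjured cord, at least 95.5-fold lower (0 and 0 CPM against 12.003 and 2.02 CPM, adjusted p = 0.0243, and 0.0827 without uninjured 1). Interferon-responsive genes went both ways, though none of them rose in edgeR: gbp1 (2.12 ± 0.51), gbp2 (1.52 ± 0.43) and psmb8a (1.45 ± 0.42) rose, with uninjured 2 above uninjured 1 in each, while the antiviral gene rsad2 (viperin) fell to 4.88 and 4.72 CPM, against 72.1 and 29.0 CPM (-3.30 ± 0.43, adjusted p = 0.00391).

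Matrix and tissue remodelling genes held further calls. The annexin gene anxa2a, for a calcium-dependent membrane-binding protein, had 1384 and 1594 CPM in injured cord, against 198 and 79.7 CPM in uninjured cord (3.26 ± 0.38, adjusted p = 0.000707; 3.34 ± 0.38 in mutants). Of 36 annexin, S100 and galectin genes 7 rose; 11 did without uninjured 1, 2 without injured 1, 2 without injured 3, 3 with TMM scaling and 3 in edgeR. They include anxa4 (1.28 ± 0.31), anxa1a (1.002 ± 0.31) and the galectin genes lgals1l1 (1.70 ± 0.40) and lgals9l1 (1.02 ± 0.28); in mutants anxa1a changed by 0.02 ± 0.31. Among proteases, the gelatinase gene mmp9 had 199 and 224 CPM against 20.4 and 6.75 CPM (3.75 ± 0.41), the sheddase gene adam8a 43.0 and 48.5 CPM against 1.61 and 2.63 CPM (3.63 ± 0.35) and its paralog adam8b 40.9 and 48.5 CPM against 4.64 and 6.42 CPM (2.53 ± 0.40). In all, 6 of 61 metalloproteinase and inhibitor genes rose (3 in edgeR), mmp14b (1.73 ± 0.40) and the collagenase gene mmp13b (1.84 ± 0.49) among them. An inhibitor gene, timp4.3, was the 1 that fell, to 13.8 and 11.98 CPM, against 39.6 and 52.4 CPM (-2.04 ± 0.31); its change in mutants was -0.43 ± 0.31. The serine protease inhibitor gene tfpi2 had 11.95 and 13.6 CPM against 0.223 and 0.123 CPM (3.27 ± 0.40), and cthrc1a, a secreted collagen triple helix repeat gene, 17.3 and 16.4 CPM against 0.982 and 0.411 CPM (3.13 ± 0.48).

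A type I collagen gene rose by more in wild type than in mutants. col1a1a, which codes for a chain of type I collagen, had 73.6 and 94.4 CPM in injured wild-type cord, against 6.51 and 5.76 CPM in uninjured cord (3.28 ± 0.33, adjusted p = 0.000369). In mutants the same gene had 43.0 and 61.1 CPM in injured and 19.7 and 27.5 CPM in uninjured cord (0.74 ± 0.33, adjusted p = 0.0977). The difference between the changes, 2.54 ± 0.46, passed (interaction adjusted p = 0.0374), and in limma with all libraries col1a1a was the only gene whose injury change was called higher in wild type than in mutants. DESeq2 called 8 such genes, and limma 6 without the 2 libraries richest in egg transcripts, 11 without uninjured 1 and 38 without uninjured 2. That test did not pass in edgeR (adjusted p = 0.0965), with a pseudocount of 5 (0.0842), without a filter on low values (0.0623), without the 2 libraries richest in egg transcripts (0.239), or when any 1 library other than an uninjured wild-type one was left out (adjusted p from 0.0777 to 0.399). It passed in DESeq2 and with TMM scaling. The other chain, col1a2, had 268 and 329 CPM against 42.3 and 22.9 CPM in wild type (2.93 ± 0.33) and 148 and 160.5 CPM against 69.2 and 93.1 CPM in mutants (0.56 ± 0.33; interaction adjusted p = 0.0579). The uninjured mutant libraries lay above the uninjured wild-type ones, and the injured mutant libraries below the injured wild-type ones, in both genes. Of 64 collagen and collagen-processing genes 12 rose in wild type and 4 of these passed in mutants; the list's median was 0.37 in wild type and -0.20 in mutants. Among those that passed in both genotypes, col5a2a had 48.8 and 40.9 CPM against 8.52 and 6.58 CPM (2.14 ± 0.34; 1.46 ± 0.34 in mutants) and col18a1a, a basement membrane chain gene, 98.6 and 110.3 CPM against 28.1 and 19.5 CPM (1.82 ± 0.31; 1.12 ± 0.31 in mutants). The type VI chain gene col6a3 rose in wild type (1.89 ± 0.34) and did not pass in mutants (0.72 ± 0.34).

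**Figure D4:**
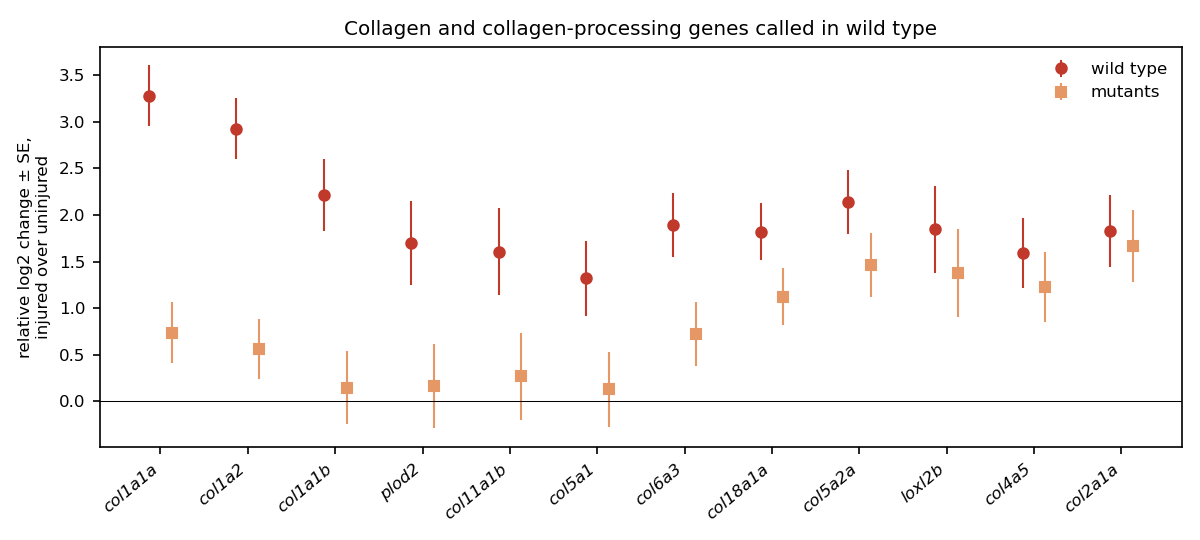
Relative log2 change of the 12 collagen and collagen-processing genes that rose in wild-type cord (injured over uninjured; bars are SE), wild type left of mutants for each gene. The type I chains col1a1a, col1a2 and col1a1b are the furthest apart between genotypes, while col2a1a and col4a5 are close together.

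Of 109 genes for adhesion proteins of the matrix 14 rose and 1 fell, the matrilin gene matn3b, named after its values were seen. The fibronectin gene fn1a, which supports cell migration in wounds, had 64.6 and 74.0 CPM in injured cord, against 9.01 and 6.30 CPM in uninjured cord (2.75 ± 0.33, adjusted p = 0.000821). The laminin chain gene lamb2 had 20.6 and 22.6 CPM against 1.03 and 3.04 CPM (2.69 ± 0.51), and the periostin gene postnb 52.9 and 63.8 CPM against 9.68 and 5.39 CPM (2.55 ± 0.37). The microfibril gene mfap2 had 47.4 and 46.7 CPM against 10.04 and 10.2 CPM (1.83 ± 0.38). dcn (decorin), an abundant member that did not pass, had 423 and 472 CPM in injured and 236 and 232 CPM in uninjured cord (0.64 ± 0.28). ccn2a, whose product takes part in glial bridging of the zebrafish cord, was looked up by name and did not pass, with 38.9 and 48.9 CPM in injured and 15.7 and 30.7 CPM in uninjured cord (0.67 ± 0.35), and its paralog ccn2b rose (1.79 ± 0.39). The change of lamb2 in mutants was 2.47, and that of postnb 0.68 ± 0.37 (adjusted p = 0.168).

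Link protein genes, whose products hold hyaluronan and proteoglycans together, went both ways. The link protein gene hapln1a had 181 and 197 CPM in injured cord, against 4.105 and 11.2 CPM in uninjured cord (4.302 ± 0.45, adjusted p = 0.000525). The other two that passed fell: hapln2, known from the nodes of Ranvier, to 45.3 and 44.0 CPM, against 143 and 269.7 CPM (-2.40 ± 0.34, adjusted p = 0.00655), and hapln4, known from perineuronal nets, to 54.1 and 51.2 CPM, against 178 and 191 CPM (-2.08 ± 0.31, adjusted p = 0.00978). hapln2 also passed downwards in mutants (-1.95 ± 0.34). Further rises were those of the lubricin gene prg4a, with 33.7 and 21.2 CPM against 0.714 and 0.823 CPM (3.68 ± 0.44), and of the lectican gene bcan (brevican), with 198 and 214 CPM against 88.4 and 78.0 CPM (1.01 ± 0.27). tnfaip6, whose product crosslinks hyaluronan in inflamed tissue, had 22.9 and 27.4 CPM against 3.70 and 0.658 CPM (2.93 ± 0.49). In all, 6 of 43 genes rose and 2 fell.

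Glial genes moved in both directions. The glutamate transporter gene slc1a3b of astroglia had 21.5 and 30.5 CPM in injured cord, against 1.12 and 0.741 CPM in uninjured cord (3.51 ± 0.43, adjusted p = 0.000946). Intermediate filament genes of radial glia rose as well: nes (nestin) to 118 and 141 CPM, against 15.7 and 27.03 CPM (2.30 ± 0.32), and the simple keratins krt8 to 209 and 268 CPM, against 69.9 and 78.1 CPM (1.38 ± 0.26) and krt18a.1 to 185 and 180.2 CPM, against 50.1 and 53.2 CPM (1.52 ± 0.30). vim (vimentin), named after its values were seen, changed by 1.01 ± 0.27. gfap, the filament gene used to mark these cells, did not pass, with 4882 and 5124 CPM in injured and 4758 and 2455 CPM in uninjured cord (0.26 ± 0.34); glula, of glutamine synthesis (0.54 ± 0.29), and fabp7a, a fatty acid binding gene (0.74 ± 0.27), did not pass either. cyp19a1b, for the brain aromatase that radial glia use to make oestrogen, fell to 0.0498 and 0.481 CPM, against 12.3 and 5.31 CPM (-3.17 ± 0.48, adjusted p = 0.00733), and to 1.05 and 0.352 CPM, against 17.7 and 14.2 CPM, in mutants (-3.71 ± 0.48, adjusted p = 0.00415). Of 71 genes of radial glia, ependyma and astroglia 11 rose (6 with TMM scaling, 5 in edgeR) and 1 fell, and the 6 radial glia markers summed to 13736 and 11843 CPM in injured cord, against 8623 and 6893 CPM in uninjured cord.

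Keratin, claudin and other junction genes of epithelial and ependymal cells rose in 9 of 77 cases (7 with TMM scaling, 6 in edgeR). These include the keratins krt8 and krt18a.1, which are also counted with the glial genes. The claudin gene cldn7a had 189.7 and 183 CPM in injured cord, against 37.0 and 52.5 CPM in uninjured cord (1.77 ± 0.30, adjusted p = 0.00434) and cdh2, the N-cadherin gene, 228 and 232 CPM against 47.2 and 80.0 CPM (1.60 ± 0.34). Of the skin markers, krt4, krt5 and cyt1 overlapped between the groups, and none of them lay above 20 CPM except krt5 in injured 1, at 116 CPM. icn was higher in both injured libraries, and the 4 markers summed to 820.4 and 766 CPM in injured cord, against 414 and 122 CPM in uninjured cord. Their part in the keratin and claudin changes was not tested. The 2 that fell, cldnd and cldng, are also expressed in eggs, and both passed upwards in mutants.

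Genes of motile cilia, which ependymal cells carry on the surface of the central canal, lay above the median change nearly throughout the list. Of 75 tested, 66 lay above the median change, 56 had both injured libraries above both uninjured ones (where 36.7% of all genes did), and 13 passed, with 10 passing without uninjured 1. With all libraries 42 were higher at an unadjusted p under 0.05, edgeR called 4 and DESeq2 17; without injured 1 or without injured 3 limma called 0. The master regulator foxj1a, named after its values were seen, had 91.7 and 119 CPM in injured cord, against 50.8 and 40.6 CPM in uninjured cord (0.89 ± 0.29, adjusted p = 0.0422). Among the members with the smallest p, rsph4a and rsph9, for proteins of the radial spokes, had 11.4 and 9.24 CPM against 1.56 and 2.18 CPM (1.69 ± 0.42) and 21.9 and 21.2 CPM against 7.90 and 5.92 CPM (1.24 ± 0.35). capsla had 15.6 and 13.8 CPM against 3.97 and 2.92 CPM (1.54 ± 0.39), and the axonemal genes cfap77 (1.51 ± 0.38), ccdc103 (1.47 ± 0.38) and cfap70 (1.36 ± 0.37) lay close to it. The list's median change was 0.69 in wild type, 0.72 without uninjured 1, and 0.71 in mutants.

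**Figure D5:**
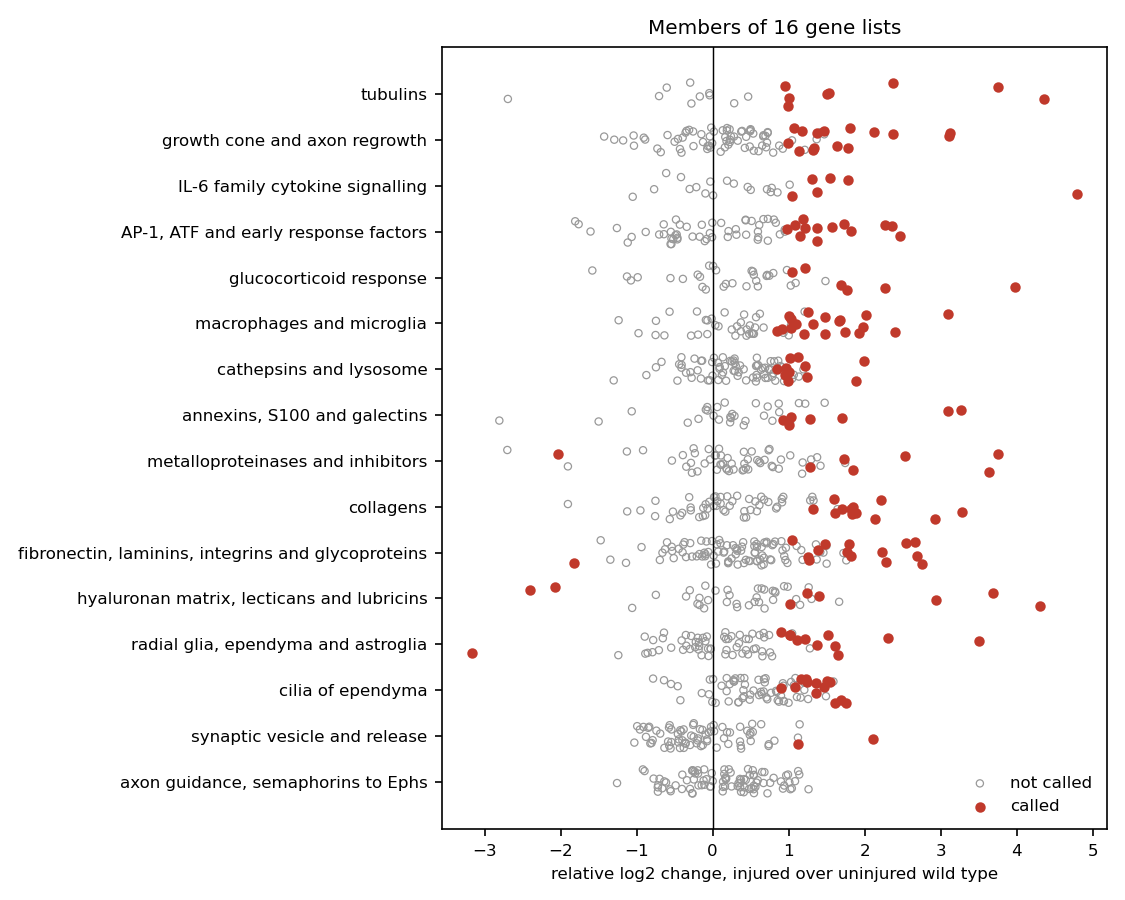
Relative log2 change in wild-type cord (injured over uninjured) of every tested member of 16 gene lists; each point is a gene, filled where it passed and open where it did not, and the vertical line marks the median of all genes. The share that rose in limma is highest in tubulins and macrophage genes among these lists, and 66 of 75 cilia genes lie above 0. The lists were chosen with earlier results of these data known.

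Neuronal genes gave single calls, at shares that for synaptic, transmitter and channel genes lay below the 2.9% of all genes tested that rose. Of 75 synaptic vesicle genes 2 rose, vamp4 (1.12 ± 0.29) and syt11b (2.11 ± 0.56), and snap25a, a vesicle fusion gene, had 2612 and 2513 CPM in injured and 2766 and 4762 CPM in uninjured cord (-0.79 ± 0.41, adjusted p = 0.530). The median change of the synaptic list was -0.20. TMM scaling called 3 of its members higher and 0 lower, edgeR 0 and 0, and DESeq2 3 higher and 7 lower. Of 86 genes of glutamate, GABA and glycine transmission 2 rose, the glial transporter genes slc1a3b and slc6a11b (1.65 ± 0.42). TMM scaling and edgeR each called 2 of these genes higher and 2 lower, and DESeq2 2 higher and 3 lower. Among 84 sodium and potassium channel genes scn4ab was the 1 that rose. This sodium channel gene, whose product is best known from muscle and electric organs, had 41.3 and 69.6 CPM in injured cord, against 1.47 and 2.43 CPM in uninjured cord (3.94 ± 0.40, adjusted p = 0.000374; 4.29 ± 0.40 in mutants). Muscle markers were lower in injured cord, and the cell type that expressed scn4ab was not tested. In the motor and cerebrospinal fluid contacting neuron list 2 of 40 rose, both neuropeptide genes: tac1, for substance P, with 1252 and 891 CPM against 365 and 350.0 CPM (1.27 ± 0.27), and calca, for CGRP, with 839.6 and 703 CPM against 268 and 239 CPM (1.31 ± 0.28). The median change of that list was -0.45, and -0.28 without uninjured 1. TMM scaling called 2 of its members higher and 3 lower, edgeR 1 higher and 3 lower, and DESeq2 3 higher and 9 lower. Among genes of motor neuron transmission, chata, for the acetylcholine-making enzyme (-0.99 ± 0.31), and ache, for acetylcholinesterase, did not pass; ache had 259 and 303 CPM in injured and 455 and 551 CPM in uninjured cord (-1.12 ± 0.40). The calmodulin-binding gene pcp4a, for a peptide of neurons, fell to 1193 and 915 CPM, against 2652 and 2588 CPM (-1.61 ± 0.26, adjusted p = 0.0177). Of 44 hox genes none passed in limma or edgeR, 0 were higher and 6 lower at an unadjusted p under 0.05, and DESeq2 called 0 higher and 6 lower.

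Myelin genes split by gene. mbpa, for myelin basic protein, took 37361 and 36901 CPM in injured cord, against 78682 and 80789.7 CPM in uninjured cord, the largest loss in CPM of any entry with a gene symbol, and did not pass (-1.39 ± 0.38, adjusted p = 0.137). plp1b had 6875 and 5669 CPM in injured and 4577 and 4051 CPM in uninjured cord (0.25 ± 0.29). Of 46 myelin and oligodendrocyte genes 5 rose; 2 did without uninjured 1 and 1 in edgeR. They include mag, with 209 and 273 CPM against 52.5 and 93.9 CPM, ninj2, an adhesion gene, with 123 and 131 CPM against 47.1 and 35.4 CPM (1.33 ± 0.28). tppp, for a microtubule-binding protein of oligodendrocytes, had 17.8 and 12.5 CPM against 1.12 and 3.004 CPM (2.16 ± 0.55), beside mpzl2b (1.3002 ± 0.36) and the claudin gene cldn19 (1.15 ± 0.36).

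Few cell division genes rose, at shares near or below the 2.9% of all genes tested that rose. mki67, the Ki-67 proliferation marker, had 20.6 and 26.8 CPM in injured cord, against 5.13 and 4.57 CPM in uninjured cord (1.78 ± 0.38, adjusted p = 0.0121), and tyms, for an enzyme of thymidine synthesis, 10.8 and 8.13 CPM against 2.72 and 1.15 CPM (1.59 ± 0.44). pcna had 132 and 128 CPM in injured and 86.7 and 72.2 CPM in uninjured cord and did not pass (0.42 ± 0.28). The phosphatase gene cdc25d (1.46 ± 0.42) and the spindle gene dlgap5 (1.36 ± 0.41) rose from a few reads. Some cyclins are also stored in eggs: ccnb2 fell to 3.14 and 2.79 CPM, against 50.5 and 16.7 CPM (-3.22 ± 0.66), and ccna1 to 2.84 and 4.86 CPM, against 65.4 and 15.7 CPM (-3.10 ± 0.69), but neither passed without uninjured 1 (adjusted p = 0.116 and 0.187). Of 85 mitosis and cyclin genes 3 rose (1 with TMM scaling, 1 in edgeR) and 2 fell; 6 rose without uninjured 1, and the list's median was 0.43 without that library and -0.05 with it. Of 60 DNA replication genes 1 rose (0 with TMM scaling, 0 in edgeR) and 1 fell, with a median of 0.23 without uninjured 1 and 0.03 with it. In the progenitor list 6 of 87 rose; besides tubb5 and the sox11 genes these are sox4a (1.23 ± 0.31), prdm8 (1.91 ± 0.31) and dlb.

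Some genes of energy metabolism fell. Muscle transcripts fell as well, and their part in these falls was not tested. Of 13 mitochondrially coded genes 3 fell: mt-atp6, for a subunit of ATP synthase, to 2752 and 2267 CPM, against 6202 and 6377 CPM (-1.62 ± 0.28, adjusted p = 0.0237), mt-nd1 (-1.48 ± 0.26) and mt-nd3 (-1.84 ± 0.37). These calls depended on the test: 0 fell with TMM scaling, in edgeR, without injured 1 or without injured 3, and 12 fell in DESeq2. The list's median was -1.26 in wild type and -1.38 in mutants. Of 96 nuclear genes of the respiratory chain 2 fell, cox4i1l (-2.26 ± 0.35) and cox8b (-1.89 ± 0.29), with 55.7 and 69.4 CPM in injured cord, against 231 and 158 CPM in uninjured cord for cox8b. Among 52 glycolysis genes, hexokinase hk2 rose to 24.4 and 27.96 CPM, against 4.19 and 4.197 CPM (2.098 ± 0.37), and the regulator pfkfb4b to 214 and 175 CPM, against 43.1 and 62.5 CPM (1.59 ± 0.34). gck (2.39 ± 0.54) and the enolase gene eno1b (0.84 ± 0.25) rose too, while gapdh (-2.41 ± 0.43) and pkmb (-2.29 ± 0.38) fell. gapdh, with 370.0 and 539 CPM against 2882 and 1317 CPM, did not pass without uninjured 1 (adjusted p = 0.0613) and did not fall in mutants (0.43 ± 0.43). The uncoupling protein gene ucp2, chosen after its values were seen, had 519.6 and 293 CPM in injured cord, against 77.3 and 67.3 CPM in uninjured cord (2.13 ± 0.31).

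Iron and haem genes rose in 7 of 45 cases (4 with TMM scaling, 4 in edgeR), 6 of which passed in mutants. The transferrin receptor gene tfr2 had 10.4 and 9.62 CPM in injured cord, against 0.0892 and 1.11 CPM in uninjured cord (2.57 ± 0.44, adjusted p = 0.00528). The haem oxygenase gene hmox1a, which breaks haem down, had 57.5 and 75.5 CPM against 22.1 and 14.8 CPM (1.52 ± 0.34), and the ferritin gene fthl31 366 and 332 CPM against 127 and 123 CPM (1.19 ± 0.26). The ferritin gene fthl28 (1.04 ± 0.26), the haem transporter gene flvcr2b (1.59 ± 0.40) and the ferroxidase gene hephl1a (1.45 ± 0.39) followed. Ferritin copies are alike, so their split is uncertain, and fth1a did not pass, with 818 and 945 CPM in injured and 1358 and 1069 CPM in uninjured cord (-0.74 ± 0.26). Chaperones gave 3 rises and 1 fall of 116 (1 rise and 2 falls with TMM scaling and in edgeR), where 2.9% of all genes tested rose and 0.952% fell. They were hspa8 with 1824 and 1818 CPM against 451 and 780.1 CPM (1.33 ± 0.32), the endoplasmic reticulum genes p4hb (0.98 ± 0.26) and ppib (0.96 ± 0.25), and downwards hsp90aa1.1, a chaperone of muscle fibres (-2.30 ± 0.43). Vascular genes rose in 5 of 57 cases (2 in edgeR), led by pecam1, an endothelial adhesion gene, with 53.9 and 63.3 CPM against 11.6 and 11.9 CPM (1.93 ± 0.34), and holding mcamb (1.56 ± 0.33), the pericyte genes rgs5b (1.47 ± 0.39) and tagln (0.98 ± 0.31), and the scavenger receptor gene stab1 (1.40 ± 0.41). In the hypoxia list hif1al (1.29 ± 0.30) and angptl4 (1.79 ± 0.41) were the 2 of 32, and in the proteasome and antigen presentation list 4 of 81 rose, cd74a, ifi30, psme2 and psmb8a, but 0 with TMM scaling, in edgeR, without injured 1 or without injured 3.

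Genes of translation were among the most abundant that rose, while ribosomal protein genes gave no call. The elongation factor gene eef1a1l1 had 5494 and 5554 CPM in injured cord, against 1539 and 1775 CPM in uninjured cord (1.45 ± 0.27, adjusted p = 0.00512), and pabpc1a, for the poly(A)-binding protein of messenger RNA, 1777 and 2076 CPM against 526 and 973 CPM (1.14 ± 0.31). Of 79 genes of cytosolic ribosomal proteins limma, edgeR and DESeq2 called 0, 0 and 0 higher, 19 were higher and 0 lower at an unadjusted p under 0.05, and without uninjured 1 limma called 17 higher. The most abundant of them, rplp0, had 4794 and 5767 CPM in injured and 3364 and 2053 CPM in uninjured cord (0.71 ± 0.31).

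Outside these groups, further large rises were those of rab34b, for a small GTPase, with 38.5 and 32.3 CPM in injured cord, against 3.17 and 2.59 CPM in uninjured cord (2.94 ± 0.34), and of the transporter genes slc16a9a (2.94 ± 0.43) and slc43a2a (2.80 ± 0.50). rpe65a, known for retinoid recycling in the eye, had 19.9 and 21.4 CPM against 0.848 and 2.43 CPM (2.82 ± 0.41), and the crystallin gene crybb2 changed by 2.92 ± 0.45. All 5 passed in mutants as well. Of the 20 largest falls outside the neighbouring tissue lists, several are genes known from other tissues. The lists did not hold nanog (-3.24 ± 0.59), slbp2 (-2.89 ± 0.59), pabpc1l (-2.32 ± 0.47) and avd (avidin, 0 and 0 CPM in injured cord, against 12.8 and 5.27 CPM in uninjured cord, at least 123-fold lower) from eggs, or smyd1a (-2.96 ± 0.42) and ckmt2b (-2.66 ± 0.57) from muscle. ctrb1 (-3.24 ± 0.59) and amy2a (-2.36 ± 0.51) are known from the pancreas, for which no list was made. The hormone genes stc1l (-2.93 ± 0.64) and cort (-2.71 ± 0.49) and the steroid enzyme gene cyp11a1 (-2.84 ± 0.54) fell in wild type, and stc1l passed upwards in mutants (2.29 ± 0.64). Last among the 20 were bscl2l (-2.27 ± 0.44) and trim101 (-2.20 ± 0.47). Of the 25 genes that passed downwards in both genotypes, 13 are in the muscle list and 1, hbaa1, is in the blood list; hapln2, cyp19a1b, cox4i1l and mt-atp6 are among the others.

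The interaction test, which asks whether the change differs between genotypes, called 108 genes (0.565%). In 107 of them the change was lower in wild type (0.56%) and in 1, col1a1a, it was higher (0.00523%). In all, 95 of the 108 were called lower in wild type, and 64 have only a clone or locus name. edgeR called 0 of them, with 785 genes at an unadjusted p under 0.05, and DESeq2 called 222. They were led by genes with high levels in uninjured 1 of the wild type and in injured 1 of the mutants. Among these, the egg coat gene zp2.2 differed by -8.75 ± 1.06 and crp2 by -10.49 ± 1.27; the other 8 of the 10 with the smallest p have clone or locus names. None of the tubulin, growth cone, IL-6 family, macrophage, lysosome or cilia genes named above passed the interaction test in limma; a p that misses the threshold does not show that their response was alike in both genotypes.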

How the data were processed

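Per the labels' protocols, total RNA of spinal cord pieces was made into TruSeq libraries and sequenced with 50 bp paired-end reads; the submitters' processing notes name Bowtie2, Cufflinks and Cuffdiff, and neither the genome build nor the way reads were counted, with or without strand, is given in the sources used here. The authors deposited CPM per gene and library. In 100% of the values the CPM came out as whole reads within 0.01 read, so reads were recovered for count tests. The wild-type injured columns carry the numbers 1 and 3, which are kept here; no label of that group carries the number 3.

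limma 3.58.1 in R 4.3.3, with trended variances, was fitted to log2(CPM + 1) of all 8 libraries as 4 group means (4 residual degrees of freedom). It tested the 19114 genes that averaged 1 CPM or more in any group, with Benjamini-Hochberg adjustment. Fold changes on this scale understate the change of low genes. edgeR 4.0.16 (quasi-likelihood) and DESeq2 1.42.0 were run on the recovered reads. The log2 fold changes and adjusted p-values of the authors' deposited table were used only to count its calls.

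The 54 gene lists were chosen with earlier results of these data known, as were the members and the choice of genes to name: the 30 largest rises and 20 largest falls with libraries within 3-fold, the members of each list with the smallest p, and the most abundant. Alternatives changed the scaling, tool, pseudocount (0.25 or 5), filter (none or 5 CPM) and libraries. A CPM value rests on at least 20082006 reads, so 3 reads over both libraries are 0.0734 CPM in injured and 0.0642 CPM in uninjured cord; these floors cover counting error only.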

Additional observations from a re-analysis of the deposited data

Results flagged for a closer look

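The change of 15 genes named above differed between genotypes by the interaction test (limma, Benjamini-Hochberg adjusted p under 0.05); the values are wild-type change minus mutant change on the log2 scale, relative to the medians. col1a1a, for a chain of type I collagen, differed by 2.54: both injured wild-type libraries (73.6 and 94.4 CPM) lay above both injured mutant ones (43.0 and 61.1 CPM), and both uninjured wild-type libraries (6.51 and 5.76 CPM) below both uninjured mutant ones (19.7 and 27.5 CPM).

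The others were lower in wild type. The clone-named entry si:ch211-226h8.4 differed by -11.36. Among egg coat genes zp3a.1 differed by -11.12, zp3 by -10.39, zp3f.1 by -10.28 and zp2.2 by -8.75. crp2 differed by -10.49 and the claudin genes cldnd and cldng by -10.16 and -8.14. The avidin gene avd differed by -5.32, the pluripotency factor gene nanog by -4.86, the histone stem-loop binding gene slbp2 by -4.18 and the hormone gene stc1l by -5.22. The cyclin genes ccnb2 and ccna1 differed by -5.07 and -5.93. In zp3 the libraries read 1.39 and 0.241 CPM in injured and 272 and 43.7 CPM in uninjured wild-type cord, and 346 and 89.7 CPM in injured and 19.8 and 2.12 CPM in uninjured mutant cord, so its level was highest in uninjured 1 of the wild type and in the injured mutants. The part of egg transcripts, and of the sex of the fish, in these differences was not tested.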

How the results depend on the processing

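The 737 calls of injury in wild type became 1707 in DESeq2, 110 when the other genotype was left out of the fit, and 317 without the 2 libraries richest in egg transcripts; leaving out 1 library gave 57 to 3834, and 610 calls in mutants gave 56 to 1751. TMM scaling, edgeR, no filter, wild-type libraries left out of the fit, and the 2 egg-rich libraries left out turned those 610 into 243, 170, 382, 1234 and 336. The 108 interaction calls became 36 with TMM scaling, 0 in edgeR (785 genes at an unadjusted p under 0.05), 222 in DESeq2, 47 with a pseudocount of 5 and 63 without a filter, and 0 to 350 when 1 library was left out. The cause of these shifts was not tested. Of the 243 named genes that passed, 194 passed with TMM scaling, 165 in edgeR and 233 in DESeq2, and none reversed in any alternative.

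No paired analysis was possible because the wild-type columns share only 1 number, injured 1 and 3 against uninjured 1 and 2. In mutants, whose numbers are 1 and 2 in both groups, same-numbered libraries deviated together at r = 0.199 over genes, and a fit with the replicate block called 1391 genes in place of 610; with 2 pairs this does not show that the numbers pair fish.

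Changes under 1 on the log2 scale were rarely among the calls: 515 of the 555 rises were larger. Where a group had 0 reads, depth allows only a bound on the fold.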

Other observations

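Neuropeptide genes outside the lists, chosen after their values were seen, were higher in injured cord in both genotypes. pyya, for a peptide YY, had 452 and 233 CPM in injured cord, against 43.37 and 47.9 CPM in uninjured cord (relative log2 change 2.52 ± 0.37, limma adjusted p = 0.00241; 3.36 ± 0.37 in mutants), and pyyb had 58.3 and 62.5 CPM against 5.53 and 16.5 CPM (2.23 ± 0.46; 1.88 ± 0.46 in mutants). vipb, for vasoactive intestinal peptide, had 24.6 and 20.4 CPM against 3.52 and 1.77 CPM (2.44 ± 0.42), nts, for neurotensin, 21.4 and 15.7 CPM against 2.77 and 3.497 CPM (1.94 ± 0.38) and pnocb, for nociceptin, 107 and 94.9 CPM against 14.9 and 28.8 CPM (1.94 ± 0.45). All 5 passed in mutants, where vipb changed by 3.65 ± 0.42, nts by 2.49 ± 0.38 and pnocb by 2.61 ± 0.45. The natriuretic peptide gene nppb had 11.4 and 10.2 CPM against 1.29 and 0.658 CPM (2.31 ± 0.42). Other peptide genes looked up did not pass: adcyap1b, for PACAP (0.96 ± 0.34), sst1.1, for somatostatin, with 28.9 and 28.5 CPM in injured and 50.1 and 52.6 CPM in uninjured cord (-1.11 ± 0.31), npy (0.81 ± 0.40) and penkb (0.23 ± 0.36), and cort, for a somatostatin-like peptide, fell.

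A few genes were read almost only after injury. rln1, a relaxin gene, had 71 reads in the injured libraries together and 0 in the uninjured ones, at least 27.06-fold higher against a floor of 3 reads over both uninjured libraries (1.74 and 1.73 CPM in injured cord, adjusted p = 0.0472; 0.868 and 1.32 CPM in injured and 0 and 0 CPM in uninjured mutants). foxg1b, a forkhead factor gene best known from the forebrain, had 135 reads against 3 (3.63 and 2.98 CPM against 0 and 0.123 CPM, adjusted p = 0.0262), while its paralog foxg1a stayed below 1 CPM in all 4 wild-type libraries. In all, 7 genes that rose had 3 reads or fewer in the uninjured libraries together, and 23 that fell had 3 or fewer in the injured ones.

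Some genes of the cilium that the list did not hold rose too. They were again chosen after their values were seen, so the size of their rises cannot be set against the list. daw1, for an assembly factor of dynein arms, had 53.0 and 56.4 CPM in injured cord, against 6.38 and 8.39 CPM in uninjured cord (2.45 ± 0.33, adjusted p = 0.00154; 1.99 ± 0.33 in mutants), and armc3 22.9 and 16.9 CPM against 1.16 and 4.44 CPM (2.31 ± 0.46). The elongation factor gene eef2b had 1735 and 1983 CPM against 367 and 578 CPM (1.72 ± 0.29; 1.19 ± 0.29 in mutants).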
